A study of Mus musculus with 18 samples.

Results

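The genes described here are 7 transcripts tied to leaving or staying in a tissue. They are the sphingosine-1-phosphate receptor genes *S1pr1*, *S1pr4* and *S1pr5*, the transcription factor gene *Klf2*, the surface lectin gene *Cd69*, and the regulator of G-protein signaling genes *Rgs1* and *Rgs2*. They were picked by symbol, as 7 of the 54309 genes in the lymphocyte count table, and all 7 were among the 13594 genes that passed the filter on low counts.

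The RNA came from type 1 innate lymphocytes of female mice bearing liver metastases that were seeded through the spleen with MC38, a colon adenocarcinoma line of the same species. All were sorted as lineage-negative CD45+ NKp46+ cells, and 4 populations had 3 libraries each. NK cells (CD49a- CD49b+) came from metastasis-free liver (MFL NK) or from the liver metastasis itself (LM CD49a- NK). CD49a+ NK cells (CD49a+ CD49b+) came from the metastasis (LM CD49a+ NK), and ILC1 (CD49a+ CD49b-) from metastasis-free liver (MFL ILC1). No mouse in these groups was free of tumor, so MFL is tumor-bearing liver outside the lesions, not healthy liver. Each library was a pool of 6 to 8 tissue samples, and the study describes 3 independent sorts without tying them to the replicate numbers. Metastases were digested with Liberase TL and DNase I at 37 °C, whereas liver parenchyma was smashed and filtered. Site and dissociation therefore cannot be told apart in any LM against MFL comparison, and p-values cover the spread between these pools.

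Lymphocytes leave tissues along gradients of sphingosine-1-phosphate, a lipid that is abundant in blood and lymph and scarce within tissue. S1pr1 is the receptor that drives exit of T and B cells, S1pr5 is the one best known for NK cell exit from bone marrow and lymph nodes, and S1pr4 is a related receptor of hematopoietic cells. Klf2 is a zinc-finger factor of quiescent, recirculating lymphocytes that promotes *S1pr1* transcription in T cells. Cd69 binds S1pr1 and drives its removal from the cell surface, and is used as a marker of both recent activation and tissue residency. Rgs1 and Rgs2 speed up GTP hydrolysis by G-alpha subunits and so dampen signals from G protein-coupled receptors, and *Rgs1* recurs in resident-lymphocyte signatures.

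RefSeq promoter sequences were at hand for 4 of the members (*S1pr4*, *S1pr5*, *Klf2* and *Rgs2*). The 250 bases before the start are shown for the receptor gene and the transcription factor gene with differences between populations below, and for *S1pr4* as the receptor gene without one. Sequences are 5′ to 3′ on the gene's own strand, and capitals mark CACCC, the core that KLF proteins bind, or its reverse complement GGGTG.
*S1pr5*, GRCm38.p6 chr9:21248444-21248693, minus strand: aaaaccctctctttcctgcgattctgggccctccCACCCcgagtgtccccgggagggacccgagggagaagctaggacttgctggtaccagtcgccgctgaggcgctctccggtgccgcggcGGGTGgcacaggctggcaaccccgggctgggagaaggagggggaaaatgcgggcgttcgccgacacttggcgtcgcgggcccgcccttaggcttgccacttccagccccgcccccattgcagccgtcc
*Klf2*, GRCm38.p6 chr8:72318812-72319061, plus strand: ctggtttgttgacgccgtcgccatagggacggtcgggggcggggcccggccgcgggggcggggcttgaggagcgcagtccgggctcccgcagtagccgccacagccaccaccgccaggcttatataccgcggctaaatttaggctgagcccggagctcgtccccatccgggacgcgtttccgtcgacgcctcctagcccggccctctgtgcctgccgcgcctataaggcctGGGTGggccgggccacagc
*S1pr4*, GRCm38.p6 chr10:81500138-81500387, minus strand: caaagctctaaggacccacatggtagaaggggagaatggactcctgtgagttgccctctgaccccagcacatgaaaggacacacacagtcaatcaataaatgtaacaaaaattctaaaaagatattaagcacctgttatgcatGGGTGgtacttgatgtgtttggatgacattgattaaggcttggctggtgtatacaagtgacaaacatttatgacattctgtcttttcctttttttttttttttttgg

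*S1pr5* held 1 forward and 1 reverse match to CACCC, while *Klf2* and *S1pr4* each held 1 reverse match and *Rgs2* 1 forward match. On either strand the letters occurred in 52.0% of 32851 RefSeq promoters of the same length, so 4 of 4 members holding them is a description of common letters. TCACACC, the core bound by T-box factors such as Eomes and T-bet, was in none of the 4 windows and in 3.33% of all promoters. The *S1pr4* window was also poorer in G and C (38.8%) than those of *S1pr5* (69.2%), *Klf2* (71.2%) and *Rgs2* (72.4%).

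The 12 libraries held 8795721 to 14386834 gene-assigned reads. *Itga1*, which encodes CD49a, followed the gates: its mean was 11.5 CPM (counts scaled to library size) in MFL NK, 11.4 in LM CD49a- NK, 134 in LM CD49a+ NK and 663 in MFL ILC1. *Itga2*, which encodes CD49b, averaged 346, 293, 129 and 37.0 CPM in the same order. Replicates were less alike in the metastasis, where the biological coefficient of variation was 1.22 for LM CD49a- NK and 1.07 for LM CD49a+ NK, against 0.511 for MFL NK and 0.651 for MFL ILC1. Endothelial cells express *S1pr1* and *Klf2* strongly, so their markers were checked: of 7, *Pecam1* alone had counts in the 6 LM libraries, and the other 6, *Cdh5*, *Kdr*, *Stab2*, *Clec4g*, *Lyve1* and *Tek*, were at 0 there. Their summed level, nearly all *Pecam1*, was 86.5 to 144 CPM in MFL NK, 79.2 to 259 in LM CD49a- NK, 220.5 to 281 in LM CD49a+ NK and 123 to 143 in MFL ILC1. Hepatocyte markers summed to 17.1 to 105 CPM in MFL NK and 30.9 to 85.4 in MFL ILC1 but to at most 13.1 in the LM libraries. Macrophage markers stayed at or below 30.7 CPM and neutrophil markers at or below 0.189. Monocyte markers summed to 341 to 371 CPM in MFL NK, 243 to 609 in LM CD49a- NK, 385 to 596 in LM CD49a+ NK and 138 to 259 in MFL ILC1. Of these, 2 to 4 of 4 were counted, with *Cd14* at 0 in the NK libraries. Most of the sum was *Ccr2*, at 201 to 593 CPM in the NK libraries and 133 to 225 in MFL ILC1. *Lyz2* reached at most 18.3 CPM in the NK libraries and 85.2 in MFL ILC1. The part of these transcripts in the member values was not tested.

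*S1pr1* (ENSMUSG00000045092.9, GRCm39 chr3:115504071-115508721, minus strand) separated MFL ILC1 from every NK population. Its level was 32.9, 48.4 and 38.6 CPM in the MFL NK libraries, 25.5, 73.7 and 24.9 in LM CD49a- NK, and 35.3, 50.6 and 55.7 in LM CD49a+ NK. In MFL ILC1 the 3 libraries held 7, 1 and 0 reads, or 0.594, 0.0732 and 0 CPM. The 3 NK populations overlapped one another, and no ILC1 library came near them. Pooled reads gave a level 181-fold higher in MFL NK than in MFL ILC1 (95% exact interval 91.6 to 419.6, counting error only) and 213-fold higher in LM CD49a+ NK than in MFL ILC1 (108 to 495). The fitted log2 differences, which depend on the prior count at so few reads, were -7.42 ± 0.90 (SE) for MFL ILC1 minus MFL NK (edgeR quasi-likelihood, adjusted p = 6.47e-05) and 7.66 ± 0.91 for LM CD49a+ NK minus MFL ILC1 (adjusted p = 9.69e-05). Among the NK populations the order of means was LM CD49a+ NK (47.2 ± 10.6 CPM, SD, n = 3), LM CD49a- NK (41.4 ± 28.0) and MFL NK (39.96 ± 7.81), and no neighbors differed beyond their spread. CD49a+ NK cells in the metastasis thus carried *S1pr1* transcript at 0.24 ± 0.64 log2 units from MFL NK (adjusted p = 0.992).

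T cells also express *S1pr1*, and the ILC1 libraries had the highest T-cell marker sum, 247 to 681 CPM against 4.98 to 35.7 in the other 9 libraries, with 4 to 7 of 7 markers counted. That sum was nearly all *Cd3g* (224 to 668 CPM), while *Cd3e* reached at most 0.366 CPM and *Trac* at most 11.6 CPM in MFL ILC1. B cells use *S1pr1* as well, and their marker sum was 30.4 to 73.0 CPM in MFL NK, 15.9 to 83.2 in LM CD49a- NK, 117 to 121 in LM CD49a+ NK and 138 to 184 in MFL ILC1, with 1 to 3 of 5 counted. It was nearly all *Ighm*, with *Pax5* at 0 in every library. MFL ILC1 thus had the highest sums of both lists, but each rested mostly on a single gene. *Cd3d* and *Cd3e* had higher means in LM CD49a+ NK (6.47 and 1.16 CPM) than in MFL ILC1 (2.27 and 0.122). *Cd3g*, *Trac*, *Cd4*, *Cd8a* and *Cd5* had higher means in MFL ILC1. The part of T and B cells in the *S1pr1* values was not tested.

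*S1pr5* (ENSMUSG00000045087.9, GRCm39 chr9:21154208-21159746, minus strand) stepped down across the 4 populations. MFL NK had 285, 255 and 209.7 CPM, LM CD49a- NK 42.0, 200.7 and 82.1, and LM CD49a+ NK 29.0, 78.8 and 9.66. MFL ILC1 had 0.17, 3.59 and 4.45 CPM, which rested on 2, 49 and 47 reads. MFL NK lay above both LM populations and MFL ILC1 lay below them, without overlap, but the LM populations overlapped each other. MFL ILC1 was lower than MFL NK by a log2 difference of -6.51 ± 0.90 (adjusted p = 0.000278), and LM CD49a+ NK was higher than MFL ILC1 by 3.84 ± 0.81 (adjusted p = 0.0141). The latter call was lost when the fit held the LM CD49a+ NK and MFL ILC1 libraries alone (adjusted p = 0.134).

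Against MFL NK, *S1pr5* differed by -2.67 ± 0.74 log2 units in LM CD49a+ NK (unadjusted p = 0.00223, adjusted p = 0.193) and by -1.21 ± 0.71 in LM CD49a- NK (adjusted p = 0.808). Neither passed the threshold of 0.1. The first passed with DESeq2 (adjusted p = 0.0599), with limma-voom and quality weights (adjusted p = 0.0112) and with replicate number as a block (adjusted p = 0.0445). It also passed without LM CD49a+ NK replicate 2, the highest of its group (adjusted p = 0.0632), or without MFL ILC1 replicate 1 (adjusted p = 0.0883). Between the LM populations the difference was -1.46 ± 0.72 (adjusted p = 0.442). In edgeR without the low-count filter each of these differences passed. The adjusted p was 5.18e-11 for LM CD49a+ NK and 0.0578 for LM CD49a- NK against MFL NK, and 0.00539 between the LM populations. The log2 differences were nearly unchanged (-2.67, -1.21 and -1.46), so the p-values moved and the sizes did not. The cause of that shift was not tested.

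*S1pr4* (ENSMUSG00000044199.7, GRCm39 chr10:81333581-81335966, minus strand) passed the threshold in no comparison. Its level was 47.2, 64.8 and 49.3 CPM in MFL NK, 27.7, 12.5 and 44.9 in LM CD49a- NK, 11.4, 33.2 and 55.5 in LM CD49a+ NK, and 22.1, 26.4 and 25.3 in MFL ILC1. MFL NK had the highest mean and lay above both LM CD49a- NK and MFL ILC1 without overlap, but LM CD49a+ NK spanned nearly the whole range. MFL ILC1 minus MFL NK was -1.13 ± 0.56 (adjusted p = 0.665), far from the size of the *S1pr1* and *S1pr5* differences in the same contrast. That value passed with limma-voom (adjusted p = 0.00141), beside 2645 of all 13594 genes. It also passed when MFL NK and MFL ILC1 were fitted alone (adjusted p = 0.0172), beside 1228 of 12779 genes. *S1pr4* was the receptor gene of the 3 that ILC1 kept at more than a few CPM.

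**Figure D1:**
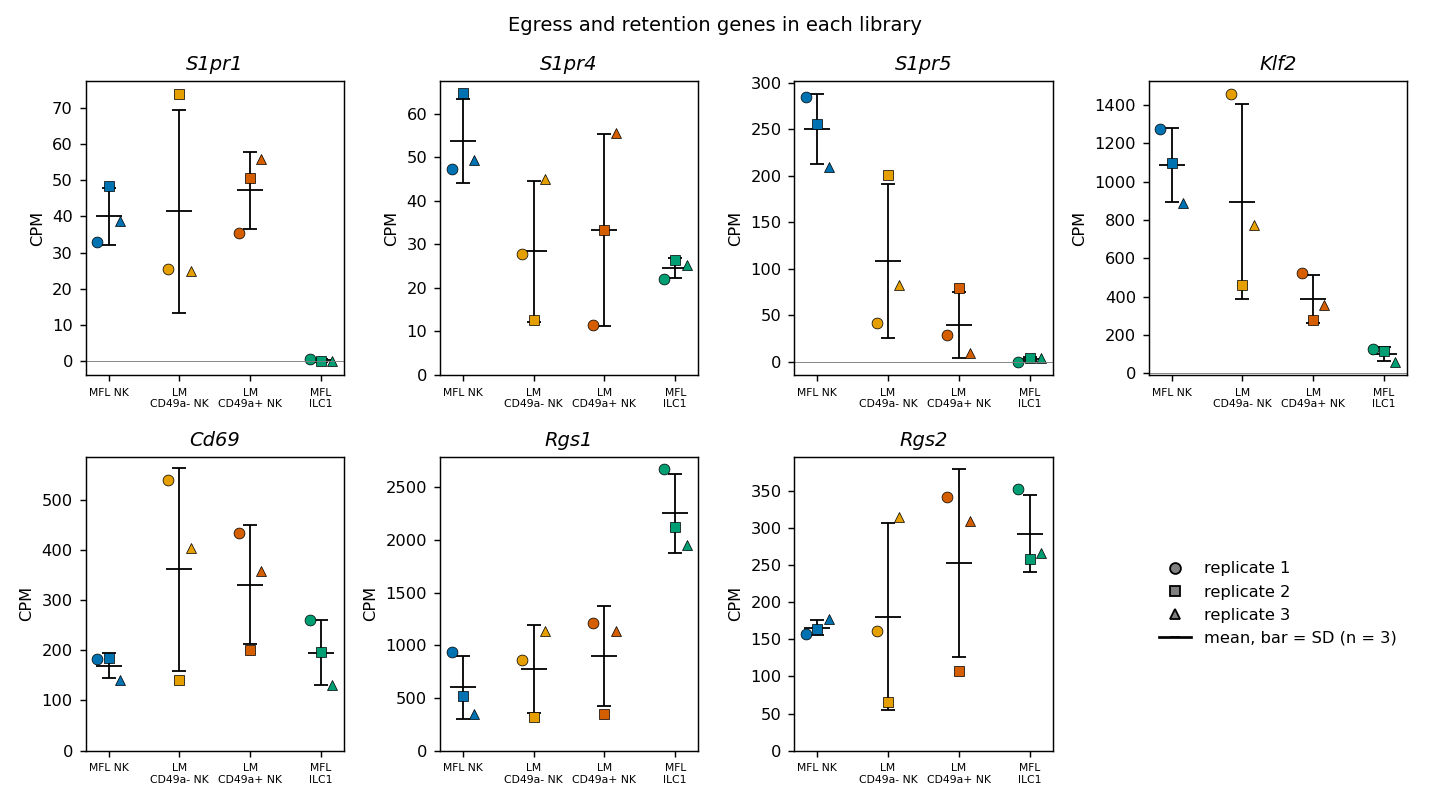
Level of each of the 7 genes in CPM (vertical axes, each starting at or just below 0) in the 12 libraries of the 4 populations. Symbols mark replicate numbers, and bars give the mean and SD of 3 libraries. *S1pr1* and *S1pr5* lie near 0 in MFL ILC1, *Klf2* is lowest and *Rgs1* highest there, and the LM libraries numbered 2 are the lowest of their groups for *Cd69*, *Rgs1* and *Rgs2*.

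*Klf2* (ENSMUSG00000055148.8, GRCm39 chr8:73072726-73075502, plus strand) fell in ILC1 as *S1pr1* and *S1pr5* did. It stood at 1271, 1098 and 887 CPM in MFL NK, 1454, 461 and 771 in LM CD49a- NK, 525, 278 and 357 in LM CD49a+ NK, and 126, 115 and 61.8 in MFL ILC1. LM CD49a+ NK lay below MFL NK and above MFL ILC1 without overlap, while LM CD49a- NK overlapped both other NK populations. MFL ILC1 was below MFL NK by a log2 difference of -3.43 ± 0.40 (adjusted p = 4.01e-05), and LM CD49a+ NK was above MFL ILC1 by 1.94 ± 0.37 (adjusted p = 0.00754).

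Within the NK cells, *Klf2* in LM CD49a+ NK differed from MFL NK by -1.49 ± 0.37 (unadjusted p = 0.000809, adjusted p = 0.107) and from LM CD49a- NK by -1.21 ± 0.37 (adjusted p = 0.286). Both missed the threshold. The former passed with DESeq2 (adjusted p = 0.0346), with limma-voom (adjusted p = 0.0115), with replicate number as a block (adjusted p = 0.0188) and when LM CD49a+ NK and MFL NK were fitted alone (adjusted p = 0.0664). It passed too without LM CD49a- NK replicate 1 (adjusted p = 0.0428), LM CD49a- NK replicate 2 (adjusted p = 0.0304) or MFL ILC1 replicate 3 (adjusted p = 0.0764). The latter passed with DESeq2 (adjusted p = 0.0769) and without LM CD49a- NK replicate 2, whose 461 CPM was the lowest of its group (adjusted p = 0.0843). Both passed in edgeR without the low-count filter (adjusted p = 5.50e-07 and 0.00022), at nearly unchanged log2 differences of -1.49 and -1.23. LM CD49a- NK minus MFL NK was -0.28 ± 0.36 (adjusted p = 0.981).

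*Cd69* (ENSMUSG00000030156.6, GRCm39 chr6:129244288-129252399, minus strand) did not set ILC1 apart. MFL NK had 183, 185 and 140.0 CPM and MFL ILC1 had 259.7, 197 and 129.9, with a log2 difference of 0.21 ± 0.39 (adjusted p = 1). LM CD49a- NK had 540.1, 141 and 403 CPM, and LM CD49a+ NK had 434, 200.2 and 359. In each LM population 2 libraries stood well above all MFL libraries and replicate 2 stood among them. LM CD49a- NK minus MFL NK was 1.09 ± 0.39 (unadjusted p = 0.0123, adjusted p = 0.699) and LM CD49a+ NK minus MFL NK was 0.97 ± 0.39 (unadjusted p = 0.0239, adjusted p = 0.435). Without LM CD49a- NK replicate 2 the first became 1.47 and passed (adjusted p = 0.0612). Both passed in edgeR without the low-count filter (adjusted p = 0.00732 and 0.0267). The LM populations themselves differed by -0.13 ± 0.39.

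*Rgs1* (ENSMUSG00000026358.14, GRCm39 chr1:144118034-144124980, minus strand) was the member that rose in ILC1. Its level was 933, 520.4 and 347 CPM in MFL NK, 859.7, 322 and 1139 in LM CD49a- NK, 1214, 349.7 and 1133 in LM CD49a+ NK, and 2672, 2128 and 1956 in MFL ILC1. The lowest ILC1 library was above the highest of the other 9, and the 3 NK populations overlapped. MFL ILC1 exceeded MFL NK by 1.91 ± 0.47 log2 units (adjusted p = 0.0377). The call was lost without MFL ILC1 replicate 1 (adjusted p = 0.156), MFL NK replicate 2 (adjusted p = 0.143) or MFL NK replicate 3 (adjusted p = 0.176). LM CD49a+ NK minus MFL ILC1 was -1.32 ± 0.46 (adjusted p = 0.185). It passed with limma-voom (adjusted p = 0.0127), with replicate number as a block (adjusted p = 0.0441) and without LM CD49a- NK replicate 2 (adjusted p = 0.0849). This difference also passed in edgeR without the low-count filter (adjusted p = 1.20e-06), at a nearly unchanged log2 difference of -1.34.

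*Rgs2* (ENSMUSG00000026360.10, GRCm39 chr1:143875076-143879899, minus strand) lies near *Rgs1* on the same strand, with *Rgs13* between them. Its level was 157, 163 and 178 CPM in MFL NK, 161, 65.0 and 315 in LM CD49a- NK, 342, 108 and 309.6 in LM CD49a+ NK, and 353, 259 and 266 in MFL ILC1. MFL ILC1 lay above MFL NK without overlap, while the LM populations spread around both. MFL ILC1 minus MFL NK was 0.82 ± 0.44 (adjusted p = 0.759). That difference passed with limma-voom (adjusted p = 0.0117), beside 2645 of all 13594 genes. It passed too when MFL NK and MFL ILC1 were fitted alone (adjusted p = 0.0148), beside 1228 of 12779 genes. It also passed in edgeR without the low-count filter (adjusted p = 0.0881).

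In bulk RNA from sorted pools, fewer expressing cells and less RNA per cell cannot be told apart. Counted together, 4 of the 7 genes differed between MFL ILC1 and MFL NK (*S1pr1*, *S1pr5* and *Klf2* lower, *Rgs1* higher), where 3.06% of all tested genes did. Between LM CD49a+ NK and MFL ILC1, *S1pr1*, *S1pr5* and *Klf2* were higher in LM CD49a+ NK, 3 of 7 against 3.58% of all genes. These comparisons share the ILC1 libraries. The members were chosen with earlier results of these data known, so the shares here and below are descriptions, not tests of the set.

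In the edgeR fit of all 12 libraries no member was called among the NK populations, and few genes were called at all. Without the low-count filter edgeR called 2 members for LM CD49a- NK against MFL NK (*Cd69* and *S1pr5*), where 158 of 21988 genes were called. For LM CD49a+ NK against MFL NK it then called 3 (*Cd69*, *S1pr5* and *Klf2*), where 371 of 21988 were. For LM CD49a+ NK against LM CD49a- NK it called 2 (*S1pr5* and *Klf2*), where 200 of 21988 were. With the filter, edgeR called 0.647% of all genes for LM CD49a+ NK against MFL NK. There 3 of the 7 members had an unadjusted p under 0.05 (*Klf2*, *S1pr5* and *Cd69*). DESeq2 called 2 (4.28% of all genes) and limma-voom 2 (2.26%). For LM CD49a+ NK against LM CD49a- NK the share was 0.14%, with 1 member under an unadjusted 0.05 (*Klf2*), 1 called by DESeq2 (6.68% of all genes) and 0 by limma-voom (0%). For LM CD49a- NK against MFL NK it was 0.0736%, with 1 member under an unadjusted 0.05 (*Cd69*) and 0 called by DESeq2 (2.19% of all genes) or limma-voom (0.765%). The edgeR shares themselves rest on single libraries: without LM CD49a- NK replicate 3 the genes called went from 19 to 267 between the LM populations and from 10 to 110 for LM CD49a- NK against MFL NK, and without LM CD49a- NK replicate 2 to 52 and 86.

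**Figure D2:**
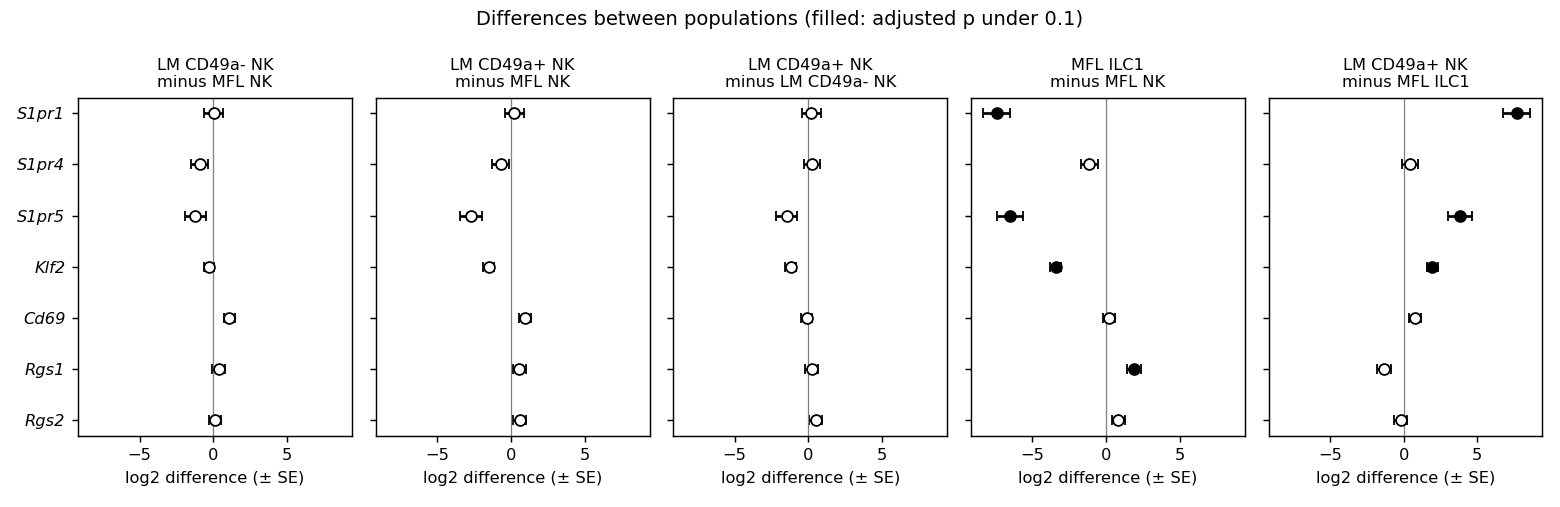
Log2 difference of each gene (horizontal axes, first population minus second, bars ± SE) in the 5 comparisons between populations, with filled points for adjusted p under 0.1. Filled points occur in the comparisons with MFL ILC1 alone, and *S1pr1* has the largest values, -7.42 and 7.66.

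The CD49a-linked difference was then compared between the sites, as LM CD49a+ NK minus LM CD49a- NK less MFL ILC1 minus MFL NK. The CD49a+ population is CD49b+ NK cells in the metastasis and CD49b- ILC1 in the liver. *Eomes* averaged 687 CPM in the former and 20.3 in the latter. Site, gate and cell type therefore cannot be told apart here. The difference of differences was 7.61 ± 1.08 log2 units for *S1pr1* (adjusted p = 0.00191), 5.05 ± 1.07 for *S1pr5* (adjusted p = 0.0359) and 2.22 ± 0.52 for *Klf2* (adjusted p = 0.0625), 3 of 7 members against 1.03% of all genes. The CD49a-linked difference of *S1pr1* was 0.19 ± 0.64 in the metastasis beside -7.42 in the liver, whereas *Klf2* differed by -1.21 and -3.43, in the same direction at both sites. The *S1pr5* call was lost without LM CD49a+ NK replicate 2 (adjusted p = 0.106). The *Klf2* call was lost without any of 6 libraries, MFL NK replicates 1 and 2, LM CD49a- NK replicate 3, LM CD49a+ NK replicates 1 and 3 and MFL ILC1 replicate 3 (adjusted p = 0.102 to 0.171). For *Rgs1* the value was -1.69 ± 0.65 (adjusted p = 0.453), and for *S1pr4*, *Cd69* and *Rgs2* it was 1.36 ± 0.79, -0.33 ± 0.55 and -0.33 ± 0.62. That of *Rgs1* passed with limma-voom (adjusted p = 0.0374) and in edgeR without the low-count filter (adjusted p = 3.34e-05).

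Levels of different members were set side by side after division by the merged exon length of each gene. Merged exons join those of all annotated transcripts and can be longer than a single spliced transcript. For *Rgs1* they spanned the whole locus (6947 bases), against 6509 bases for *Cd69* and 2136 for *Klf2*. A divisor longer than the transcripts present lowers the value. The order between members thus depends on this divisor, and other transcript lengths were not tried. In MFL NK, *Klf2* led with 508 ± 90.1 CPM per kb, followed by *Rgs1* (86.4 ± 43.4) and *S1pr5* (73.9 ± 11.2), and *S1pr1* was lowest (9.67 ± 1.89). In MFL ILC1 the order of these changed to *Rgs1* (324 ± 53.8), *Rgs2* (80.7 ± 14.36), *Klf2* (47.2 ± 16.1) and *Cd69* (30.0 ± 9.97), above *S1pr4* (10.3 ± 0.946), *S1pr5* (0.81 ± 0.67) and *S1pr1* (0.0538 ± 0.0784). LM CD49a+ NK kept *Klf2* (181 ± 59.1) and *Rgs1* (129 ± 68.7) at the top, within their spread of each other. There the 3 receptor genes had means of 13.98 ± 9.24 (*S1pr4*), 11.6 ± 10.6 (*S1pr5*) and 11.4 ± 2.56 (*S1pr1*) CPM per kb, which did not differ beyond their spread.

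Transcripts of early response and heat shock also varied within the LM populations. A list of 21 such genes, including *Fos*, *Jun*, *Dusp1*, *Nr4a1* and *Hspa1b*, summed to 17943, 8653 and 18757 CPM in LM CD49a- NK and 12488, 8524 and 15876 CPM in LM CD49a+ NK. In MFL NK the sum was 7173 to 8937 CPM and in MFL ILC1 5701 to 8924. The LM libraries numbered 2 thus fell within the MFL NK range for this sum, and they had the lowest *Cd69*, *Rgs1* and *Rgs2* of their groups. The 2 parts of the list differed, however, when it was divided after its values were seen. The 17 early-response genes summed to 15304, 5971 and 17558 CPM in LM CD49a- NK and 11273, 5424 and 15000 in LM CD49a+ NK, lowest in replicate 2 of each. The 4 heat-shock genes (*Hspa1a*, *Hspa1b*, *Hsph1* and *Dnajb1*) summed to 2639, 2683 and 1199 CPM in LM CD49a- NK and 1216, 3100 and 876 in LM CD49a+ NK, highest in replicate 2 of each, against 192 to 478 in the MFL libraries. *S1pr1* in LM CD49a- NK was highest in replicate 2, with 73.7 CPM in replicate 2 against 25.5 and 24.9.

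Genes of this list that passed the test were *Hspa1b* and *Hspa1a*, inducible HSP70 chaperones, in both LM populations against MFL NK. *Hspa1b* averaged 79.0 ± 12.7 CPM in MFL NK, 1038 ± 373 in LM CD49a- NK, 874 ± 676 in LM CD49a+ NK and 90.1 ± 68.3 in MFL ILC1. *Nr4a1*, an orphan nuclear receptor induced by activation, fell in MFL ILC1 against MFL NK (-2.52 ± 0.69, adjusted p = 0.0712) and was higher in LM CD49a+ NK than in MFL ILC1 (4.70 ± 0.76, adjusted p = 0.00168), as were *Hspa1b*, *Hspa1a*, *Socs3* and *Nfkbia*. Several of these calls were lost when a single library was left out. *Hspa1b* in LM CD49a- NK was lost without MFL NK replicate 1 or 3 (adjusted p = 0.155 to 0.206). *Hspa1a* was lost without any 1 of the MFL NK libraries in both LM populations, and also without LM CD49a- NK replicate 1 in the first (0.191 to 0.417) and without LM CD49a+ NK replicate 2 in the second (0.106 to 0.224). *Nr4a1* in MFL ILC1 was lost without MFL NK replicate 1 or 3 or any 1 of the MFL ILC1 libraries (0.122 to 0.256), and *Nfkbia* without LM CD49a+ NK replicate 3 (0.161). The part of this response in the member values was not tested. With both LM libraries numbered 2 left out, a choice made after seeing these values, LM CD49a+ NK against MFL NK had 4 members called, where 3.12% of all genes were: *Cd69* (1.22, adjusted p = 0.0383) and *Rgs2* (0.97, adjusted p = 0.0883) higher, and *S1pr5* (-3.70, adjusted p = 0.0265) and *Klf2* (-1.30, adjusted p = 0.0797) lower. *Cd69* was then also called for LM CD49a- NK against MFL NK (1.48, adjusted p = 0.0205, 0.984% of all genes) and for LM CD49a+ NK against MFL ILC1 (1.02, adjusted p = 0.0485, 7.14% of all genes). Between the LM populations 0.83% of all genes and no member were then called.

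**Figure D3:**
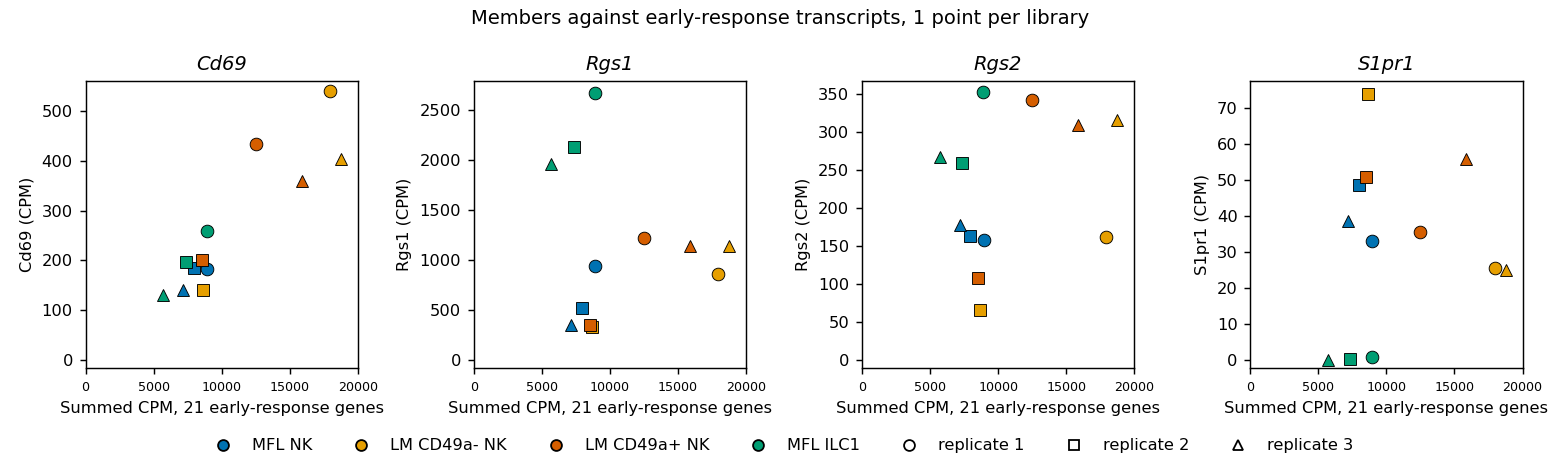
Levels of *Cd69*, *Rgs1*, *Rgs2* and *S1pr1* (vertical axes, CPM) against the summed CPM of 21 early-response and heat-shock genes (horizontal axes), 1 point per library, colored by population and shaped by replicate number. The square LM points (replicate 2) sit among the MFL NK points on the horizontal axis and low on the *Cd69*, *Rgs1* and *Rgs2* axes, and the ILC1 points sit high for *Rgs1* at a low sum.

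The other genes of the sphingosine-1-phosphate pathway did not pass the test. Of 10 receptor and G-alpha genes, 9 were tested, and the genes called were *S1pr1* and *S1pr5* in both comparisons with ILC1. For MFL ILC1 against MFL NK limma-voom called 4 of the 9, beside 2645 of all 13594 genes. *Gna13*, a G-alpha subunit gene, had a log2 difference from MFL NK of 1.03 ± 0.32 in LM CD49a+ NK (unadjusted p = 0.0054, adjusted p = 0.292) and 0.84 ± 0.32 in LM CD49a- NK (unadjusted p = 0.018, adjusted p = 0.723). *S1pr2*, a receptor that inhibits migration through Gna13, averaged 6.64 to 14.2 CPM in the 4 populations. *S1pr3* was not tested and had counts in MFL ILC1 replicate 1 alone, at 15.2 CPM. *Gnai2*, the G-alpha subunit that couples S1pr1 to migration, averaged 578 to 670.1 CPM. Of 10 genes for synthesis, export and breakdown of the lipid, 5 were tested and 0 were called in any comparison with edgeR, with 0 at an unadjusted p under 0.05 and 0 by DESeq2, while limma-voom called 2 for MFL ILC1 against MFL NK. The median log2 difference of the 9 receptor and G-alpha genes for MFL ILC1 minus MFL NK was -0.78, against 0.0055 over all genes.

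In the RGS family 11 of 21 genes were tested. For MFL ILC1 against MFL NK limma-voom called 7 of the 11, beside 2645 of all 13594 genes. With edgeR, besides *Rgs1*, *Rgs16* was called, in the opposite direction: it averaged 17.9 ± 6.57 CPM in MFL NK, 93.0 ± 71.3 in LM CD49a- NK, 83.8 ± 39.5 in LM CD49a+ NK and 1.92 ± 1.14 in MFL ILC1. MFL ILC1 minus MFL NK was -3.22 ± 0.67 (adjusted p = 0.00988), and LM CD49a+ NK minus MFL ILC1 was 5.44 ± 0.73 (adjusted p = 0.000281). ILC1 was thus highest for called *Rgs1* and lowest for called *Rgs16*. Uncalled *Rgs3* (567 to 696 CPM) and *Rgs18* (19.6 to 29.0 CPM) also lay above all other libraries in ILC1. Uncalled *Rgs19* had its lowest mean there (35.1 CPM). The family median for MFL ILC1 minus MFL NK was 0.82, against 0.0055 over all genes. Among 6 genes of receptor desensitization, *Grk6*, a kinase of activated G protein-coupled receptors, fell in MFL ILC1 against MFL NK (-1.03 ± 0.23, adjusted p = 0.0162) and was higher in LM CD49a+ NK than in ILC1 (0.95 ± 0.23, adjusted p = 0.0309). The first was lost without MFL ILC1 replicate 1 (adjusted p = 0.109), and the second without that library, MFL ILC1 replicate 2 or LM CD49a+ NK replicate 3 (adjusted p = 0.102 to 0.176).

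*Klf2* had company in its own family. Of 13 tested KLF genes, *Klf2*, *Klf3* and *Klf12* fell in MFL ILC1 against MFL NK and none rose. These genes were also higher in LM CD49a+ NK than in MFL ILC1. For MFL ILC1 against MFL NK limma-voom called 8 of the 13, beside 2645 of all 13594 genes. *Klf3*, a transcriptional repressor, averaged 293 ± 20.3 CPM in MFL NK, 146 ± 14.6 in LM CD49a- NK, 85.5 ± 11.4 in LM CD49a+ NK and 38.1 ± 8.90 in MFL ILC1. The 4 populations did not overlap for *Klf3*, and it fell in LM CD49a+ NK against MFL NK (-1.78 ± 0.24, adjusted p = 0.00128), which *Klf2* did not pass. *Klf12* averaged 71.8 ± 12.4 CPM in MFL NK, 80.8 ± 39.0 in LM CD49a- NK, 27.05 ± 14.9 in LM CD49a+ NK and 7.52 ± 3.73 in MFL ILC1. Its call for LM CD49a+ NK against MFL ILC1 (1.84 ± 0.51, adjusted p = 0.0735) was lost with limma-voom, with those groups fitted alone, and without any MFL NK library, MFL ILC1 replicate 1 or 3 or LM CD49a+ NK replicate 3 (adjusted p = 0.111 to 0.315). The family median for MFL ILC1 minus MFL NK was -0.73.

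Of 10 genes for recirculation and homing, 3 fell in MFL ILC1 against MFL NK (*Zeb2*, *Itga4* and *Cx3cr1*) and 0 rose. In that comparison limma-voom called 9 of the 10, beside 2645 of all 13594 genes. *Zeb2*, a repressor needed for NK maturation and for *S1pr5* expression, averaged 673 ± 64.7, 435 ± 21.6, 132 ± 10.4 and 25.8 ± 12.9 CPM in MFL NK, LM CD49a- NK, LM CD49a+ NK and MFL ILC1. Within the metastasis *Zeb2* fell in the CD49a+ cells against the CD49a- cells (-1.72 ± 0.30, adjusted p = 0.0402), as did *Itga4*, the alpha-4 integrin gene (-1.13 ± 0.20, adjusted p = 0.0402). Both calls were lost with limma-voom and without LM CD49a+ NK replicate 1 or 2, that of *Itga4* also with the LM groups fitted alone or without MFL ILC1 replicate 2 (adjusted p = 0.104 to 0.168 for *Zeb2* and 0.103 to 0.922 for *Itga4*). *Zeb2*, *Itga4* and *Itgb2*, the beta-2 integrin gene (-1.45 ± 0.25, adjusted p = 0.0112), fell in LM CD49a+ NK against MFL NK. *Foxo1*, which sustains *Klf2* in T cells, was higher in LM CD49a+ NK than in MFL ILC1 (0.97 ± 0.26, adjusted p = 0.0698). That call was lost with those groups fitted alone and without any 1 of the MFL NK or MFL ILC1 libraries or LM CD49a+ NK replicate 1 or 3 (adjusted p = 0.1 to 0.326). *Cx3cr1*, a chemokine receptor gene, fell in MFL ILC1 against MFL NK (-4.94 ± 1.20, adjusted p = 0.0335), but not without MFL NK replicate 1 or MFL ILC1 replicate 2 (adjusted p = 0.13 to 0.136).

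Of 8 residency genes, *Cxcr6*, *Zfp683* and *Ahr* rose and *Prdm1* fell in MFL ILC1 against MFL NK. *Zfp683*, which encodes Hobit, a repressor of egress genes including *S1pr1* and *Klf2* in resident lymphocytes, averaged 219 ± 16.1 CPM in MFL ILC1 and at most 3.33 ± 4.75 in the 3 NK populations. *Prdm1*, which encodes the related factor Blimp-1, ran against its list at 34.9 ± 2.91 CPM in MFL ILC1 and 140.1 ± 13.6 in MFL NK. In LM CD49a+ NK against MFL NK, *Ahr* rose (3.71 ± 0.50, adjusted p = 0.00143), to 137 ± 41.1 CPM from 10.5 ± 5.98, while *S1pr1* in the same libraries stayed at the NK level. *Cxcr6*, *Zfp683* and *Hic1* were lower in LM CD49a+ NK than in MFL ILC1, *Hic1* not without LM CD49a+ NK replicate 2 or with those groups fitted alone (adjusted p = 0.105 to 0.13).

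**Figure D4:**
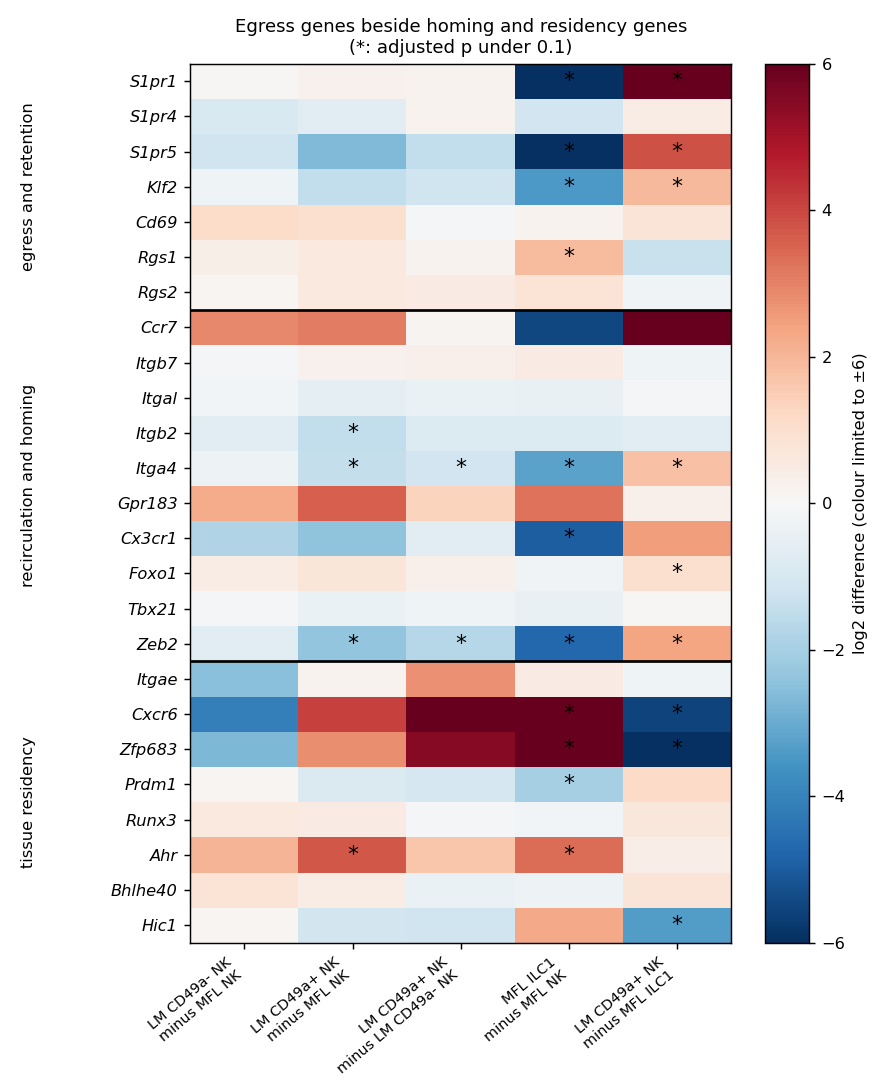
Log2 difference (color, limited to ±6) of the 7 genes, 10 recirculation and homing genes and 8 residency genes (rows) in 5 comparisons (columns), with asterisks for adjusted p under 0.1. In the column of MFL ILC1 minus MFL NK, *S1pr1*, *S1pr5*, *Klf2*, *Itga4*, *Cx3cr1* and *Zeb2* are low, and *Cxcr6* and *Zfp683* are high.

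Across the 12 libraries, the genes most like each member were found by Pearson's r of log2 CPM among 9774 genes with a mean of at least 5 CPM over these libraries. For *S1pr1* they were *Eomes* (r = 0.98), *AI506816* (0.98) and *Il18r1* (0.98), and the points share the contrast of 3 ILC1 with 9 NK libraries. *Eomes*, the T-box factor that defines NK cells, averaged 668 CPM in MFL NK and 20.3 in MFL ILC1. For *S1pr5* they were *Gab2* (0.96), *Sbk1* (0.94) and *Cmklr1* (0.94), and for *Klf2* they were *Syne3* (0.97), *Zeb2* (0.95) and *Itga4* (0.94). *Cd69* was most like *Klf4* (0.94), *Rab1a* (0.90) and *Gm37510* (0.90). The values were lower for *S1pr4* (*Sun1*, 0.91), *Rgs1* (*Ttn*, 0.85) and *Rgs2* (*Ero1b*, 0.93). Among the members themselves, r was 0.82 for *S1pr1* with *Klf2*, 0.78 for *S1pr1* with *S1pr5*, 0.81 for *Rgs1* with *Rgs2* and -0.83 for *S1pr5* with *Rgs1*. *Cd69* and *S1pr1*, whose proteins bind each other, had r = 0.24.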

How the data were processed

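The authors trimmed reads with Trim Galore, quantified them with Salmon v1.5.0 against GENCODE M27 (GRCm39) with gene-level summing in tximport v1.28.0. Deposited values were expected counts, rounded to whole numbers. Here 54309 genes were named from GENCODE vM39 (53700 IDs matched). All 12 lymphocyte libraries (8795721 to 14386834 reads) were fitted in edgeR 4.0.16 with TMM scaling and filterByExpr, 1 coefficient per population and the quasi-likelihood test. A call meant p under 0.1 after Benjamini-Hochberg adjustment, the study's own cutoff. SE is the log2 difference divided by the square root of F. CPM used TMM library sizes. With 3 against 3 libraries an exact permutation test cannot go below p = 0.1, so none was used. The fit was tried on simulated counts for MFL ILC1 against MFL NK alone, with the same spread in all populations. That trial does not cover the comparisons among NK populations, where the LM replicates were less alike. Members and gene lists were chosen with earlier results of these data known. All 7 members are named throughout, and list genes where called, up to 4 per direction by size with a mean of 5 CPM. For likeness the 3 closest genes per member were ranked (prior count 2), with *S1pr4*, *Rgs1* and *Rgs2* given by the first alone. DESeq2 1.42.0, limma 3.58.1, DESeq2 size factors, no filter, separate fits, a replicate block and omission of each library were alternatives. Deviations from the group means correlated at r -0.045 to 0.098 in the 18 same-numbered pairs. None was over 0.1, yet 9 of 12 libraries correlated best with their own number. These weak values do not settle whether the numbers mark shared sorts. The main fit held no block because the study's methods name none. The macrophage libraries were not used. One gene of the homing list and one marker gene are not reported here.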

Additional observations from a re-analysis of the deposited data

Results flagged for a closer look

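For 3 genes the CD49a-linked difference itself differed between the metastasis and the metastasis-free liver, by a test of the difference in edgeR. In the liver it was a difference of ILC1 from NK cells, and in the metastasis a difference between NK populations. For *S1pr1* the difference of differences was 7.61 log2 units (adjusted p = 0.00191), with ILC1 at 7, 1 and 0 reads and every LM CD49a+ NK library at the NK level. For *S1pr5* it was 5.05 (adjusted p = 0.0359), and for *Klf2* 2.22 (adjusted p = 0.0625). All 3 were positive, because MFL ILC1 lay further below MFL NK than LM CD49a+ NK lay below, or beside, LM CD49a- NK. Site, dissociation, the CD49b gate and cell type cannot be told apart in this contrast. Over all alternatives the value ranged from 7.09 to 9.80 for *S1pr1*, 4.02 to 5.85 for *S1pr5* and 1.90 to 2.76 for *Klf2*. The *S1pr5* call was lost without LM CD49a+ NK replicate 2 (adjusted p = 0.106). The *Klf2* call was lost on several single omissions, with an adjusted p of up to 0.171.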

How the results depend on the processing

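The number of members called stayed within 1.5 times in 96 of 113 alternatives, including every one for MFL ILC1 against MFL NK, LM CD49a+ NK against MFL ILC1 and the difference between the sites. The other 17 were counts among the NK populations, where 0 were called. For LM CD49a- NK against MFL NK, 2 were called without the low-count filter, 1 with both LM libraries numbered 2 left out (added after seeing the data), and 0 to 1 on leaving out single libraries. For LM CD49a+ NK against MFL NK the counts were 3 without the filter, 2 each with DESeq2, limma-voom and the replicate block, 1 with the groups compared fitted alone, 4 without both LM libraries numbered 2, and 0 to 1 on leaving out single libraries. For LM CD49a+ NK against LM CD49a- NK they were 2 without the filter, 1 with DESeq2 and 0 to 1 on leaving out single libraries. With replicate number as a block the members added were *Klf2* and *S1pr5* (LM CD49a+ NK against MFL NK) and *Rgs1* (LM CD49a+ NK against MFL ILC1), none was lost, and 9 of 12 libraries correlated best with their own number, a hint from the data, not the design. The causes of these changes were not tested.

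The sign of a member's difference changed in 28 alternatives, none of them for a called difference. For LM CD49a- NK minus MFL NK, *S1pr1* went from 0.05 to -0.54 with limma-voom, -0.0439 with the block, -0.67 without both LM libraries numbered 2, and -0.67 to 0.30 on leaving out single libraries. *Klf2* there reached 0.0321 without both and -0.82 to 0.0315 on single omission, *Rgs1* -0.0301 to 0.83, and *Rgs2* -0.11 with the block and -0.56 to 0.52 on single omission. In LM CD49a+ NK minus LM CD49a- NK, *S1pr4* was -0.22 with limma-voom, -0.12 without both and -0.35 to 0.72 on single omission, *Rgs1* -0.27 and -0.15 to 0.60, *S1pr1* -0.0628 to 0.90 and *Cd69* -0.51 to 0.28. In LM CD49a+ NK minus MFL ILC1, *S1pr4* spanned -0.14 to 0.85 and *Rgs2* 0.15 without both and -0.48 to 0.15. *Cd69* spanned -0.0533 to 0.43 for MFL ILC1 minus MFL NK and -0.72 to 0.0754 for the difference between the sites, where *Rgs2* spanned -0.73 to 0.36. Of the called list genes, 13 values were lost under some alternative, and counts called within the gene lists moved by over 1.5 times in 143 alternatives and not in 761.

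Counts over all genes varied by tool and by library. With edgeR, DESeq2, limma-voom and edgeR without the low-count filter, LM CD49a- NK against MFL NK had 10, 309, 104 and 158 genes called, and 3 with those groups fitted alone. LM CD49a+ NK against MFL NK had 88, 589, 307 and 371. LM CD49a+ NK against LM CD49a- NK had 19, 919, 0 (746 at an unadjusted p under 0.05) and 200, and 3 alone. MFL ILC1 against MFL NK had 416, 766, 2645 and 599, and 1228 alone. LM CD49a+ NK against MFL ILC1 had 486, 1367, 935 and 774, and the difference between the sites 140, 526, 180 and 264. With limma-voom the median over all genes moved to -0.36, -0.27 and -0.28 for LM CD49a- NK and LM CD49a+ NK minus MFL NK and LM CD49a+ NK minus MFL ILC1, from -0.09, -0.04 and -0.07. On leaving out single libraries the counts spanned 1 (without MFL NK replicate 1) to 110, 26 to 168, 5 to 267, 268 to 562, 257 to 708 and 75 to 256, with the comparisons in the order of the counts above.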
